A study of Mus musculus with 8 samples.

Results

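The genes described here are mitosis and cyclin genes in mouse bone marrow-derived macrophages with and without the kinase Tpl2. They are a list of 40 gene symbols, chosen for roles in cell cycle entry and cell division with earlier results of these data known. A gene was measured where at least 1 probe set of the array is annotated to its symbol alone, and the brightest of its probe sets, averaged over the 8 arrays, gave its value. That rule found 39 of the 40 members, among 18193 genes in all, and Ccnb1 (cyclin B1) was not analysed here. The study's 8 arrays fall into 4 groups of 2: Tpl2-deficient macrophages treated with LPS (KO LPS), wild-type macrophages treated with LPS (WT LPS), unstimulated Tpl2-deficient macrophages (KO unstimulated) and unstimulated wild-type macrophages (WT unstimulated). All cells were grown from marrow for 7 to 10 days in macrophage colony-stimulating factor (M-CSF) at 10 ng/mL. LPS, an Escherichia coli lipopolysaccharide that activates toll-like receptor 4, was used at 1 μg/mL, and the labels assign no stimulation time to these arrays. Strain, age and sex of the mice and the kind of Tpl2 allele are not given in the labels used here. The 2 arrays of a group are called biological replicates, without a statement that they come from separate animals, so the p-values reflect only how far these samples spread, which may be technical.

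Macrophages grown in M-CSF still divide. Mitogens act through the receptor Csf1r and the ERK kinases to raise the D-type cyclins, which bind Cdk4 or Cdk6 and start the inactivation of the retinoblastoma proteins. Cyclins E and A with Cdk2 then drive DNA replication, and cyclins A and B with Cdk1 drive entry into mitosis. Many genes for mitosis are transcribed together late in the cycle by the B-Myb and FoxM1 factors and are repressed in resting cells by the DREAM complex. Tpl2, encoded by Map3k8, is the kinase through which LPS activates MEK and ERK in macrophages, and LPS is known to arrest the proliferation of these cells.

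Values are log2 RMA intensities. Each log2 change is given ± its standard error, as estimated by limma from the 8 arrays together, and p-values were adjusted by Benjamini-Hochberg over all 18193 genes. A gene is called rising, falling, higher or lower only at an adjusted p under 0.05. Where the lower group mean was below its arrays' own median (6.48 to 6.53), a signal above background is not shown, and the fold is written as "at least", a rule chosen after the values were seen. Microarrays have no read depth, and precision is limited by how few arrays there are. Map3k8, the targeted gene, was 2.00-fold lower in KO than in WT macrophages both with LPS (adjusted p = 0.000125) and unstimulated (adjusted p = 0.00237, limma), with 1 probe set, and the labels do not say whether it lies inside the deleted part. The macrophage markers Csf1r (14.42 to 14.80) and Adgre1 (13.39 to 13.91) were bright in every array. Of 16 markers, 14 had a mean over the 8 arrays above the array medians. With LPS 31.2% rose and 43.8% fell in KO cells, against 16.0% and 25.8% of all genes. In WT cells 37.5% rose and 31.2% fell, against 21.3% and 30.9%. Cebpa measured 7.23 and 7.15 in KO LPS and 8.07 and 7.98 in WT LPS, against 12.36 to 12.53 in unstimulated arrays. The median SD between the arrays of a group over all genes was 0.129 in KO LPS, against 0.0660 in WT LPS, 0.0649 in KO unstimulated and 0.0662 in WT unstimulated. For the 39 members it was larger, at 0.167 in KO LPS, 0.190 in WT LPS, 0.264 in KO unstimulated and 0.376 in WT unstimulated. In bulk samples, fewer dividing cells and less mRNA per dividing cell cannot be told apart.

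The D-type cyclins carried the main genotype difference. Ccnd1, Ccnd2 and Ccnd3 were all lower in KO than in WT macrophages under LPS, while none of the 3 passed the test between unstimulated groups. Their kinase partners Cdk4 and Cdk6 did not pass between the genotypes in either state with the probe sets used, while the dimmest of 3 Cdk6 probe sets was lower in KO LPS (-0.56 ± 0.17, adjusted p = 0.0483). Over all 39 members, 3 were lower and 2 higher in KO LPS than in WT LPS, against a background of 5.73% of all genes lower and 8.01% higher, or 13.7% in either direction. Repeating quantile normalization gave 3 lower and 1 higher, and centring on the hybridisation spike-ins gave 3 lower and 4 higher.

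Ccnd2 encodes cyclin D2 and had the largest LPS change of all members in both genotypes. It measured 9.74 and 9.47 in KO LPS, against 6.16 and 6.02 in KO unstimulated cells. It measured 12.02 and 12.04 in WT LPS, against 6.66 and 5.60 in WT unstimulated cells. The LPS-treated arrays stood far above the unstimulated arrays in both genotypes, and both KO LPS arrays lay below both WT LPS arrays. The rise with LPS was 3.51 ± 0.25 in KO cells (at least 11.4-fold, adjusted p = 5.23e-07) and 5.90 ± 0.25 in WT cells (at least 59.8-fold, adjusted p = 7.84e-09). Under LPS, Ccnd2 was 5.39-fold lower in KO than in WT cells (-2.43 ± 0.25, adjusted p = 7.04e-05). All 7 probe sets of Ccnd2 were lower in KO LPS, by log2 differences between -2.57 and -1.19. The KO minus WT difference of the LPS changes was -2.39 ± 0.36 (adjusted p = 0.00205). It rests on unstimulated means under the array medians and is no bound.

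Ccnd1 encodes cyclin D1, the D-type cyclin that M-CSF induces through ERK in macrophages. It measured 7.93 and 8.04 in KO LPS, 9.56 and 9.86 in WT LPS, 9.31 and 9.53 in KO unstimulated and 9.82 and 9.69 in WT unstimulated arrays. The KO LPS arrays were low and did not overlap with any other group, and the WT LPS arrays lay on both sides of the WT unstimulated arrays. With LPS, Ccnd1 fell 2.71-fold in KO cells (-1.44 ± 0.13, adjusted p = 2.86e-06). The WT change was -0.05 ± 0.13, with a 95% interval from -0.33 to 0.23 (adjusted p = 0.771). Ccnd1 was therefore 3.30-fold lower in KO LPS than in WT LPS (-1.72 ± 0.13, adjusted p = 5.74e-06), and its LPS changes differed by -1.39 ± 0.18 (adjusted p = 0.00082). The other 2 probe sets gave -2.68 and -0.85 under LPS, and both passed.

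Ccnd3 encodes cyclin D3 and moved in opposite directions. It measured 8.45 and 8.45 in KO LPS, against 9.20 and 9.13 in KO unstimulated arrays. It measured 9.80 and 9.69 in WT LPS, against 9.25 and 9.25 in WT unstimulated arrays. LPS lowered it in KO cells (-0.71 ± 0.10, adjusted p = 9.72e-05) and raised it in WT cells (0.50 ± 0.10, adjusted p = 0.00112), with no overlap between treated and untreated arrays. It was 2.45-fold lower in KO LPS than in WT LPS (-1.29 ± 0.10, adjusted p = 6.13e-06), and the LPS changes differed by -1.21 ± 0.14 (adjusted p = 0.000329). These values come from the brightest of 3 probe sets. The others, with means of 7.73 and 4.71, gave 0.01 and 0.16 between the genotypes under LPS and did not pass. With the mean of all probe sets the genotype difference under LPS was -0.38. The LPS changes of -0.16 in KO cells and 0.20 in WT cells, and their difference of -0.36, did not pass there.

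Cdk4 and Cdk6, the kinases that D-type cyclins activate, moved in opposite directions with LPS. Cdk4 measured 9.34 and 9.49 in KO LPS, against 10.84 and 10.75 in KO unstimulated arrays, and 9.14 and 9.25 in WT LPS, against 11.06 and 11.01 in WT unstimulated arrays. It fell by 1.38 ± 0.10 in KO cells (adjusted p = 6.87e-07) and fell by 1.84 ± 0.10 in WT cells (adjusted p = 5.9e-08). All 3 of its probe sets fell in both genotypes. Cdk6 measured 11.25 and 11.36 in KO LPS, against 10.13 and 9.98 in KO unstimulated arrays, and 11.25 and 11.22 in WT LPS, against 10.41 and 10.35 in WT unstimulated arrays. It rose by 1.25 ± 0.10 in KO cells (adjusted p = 1.45e-06) and by 0.86 ± 0.10 in WT cells (adjusted p = 2.7e-05). Between the genotypes under LPS, the 95% interval of the difference was -0.01 to 0.45 for Cdk4 and -0.15 to 0.30 for Cdk6.

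**Figure D1:**
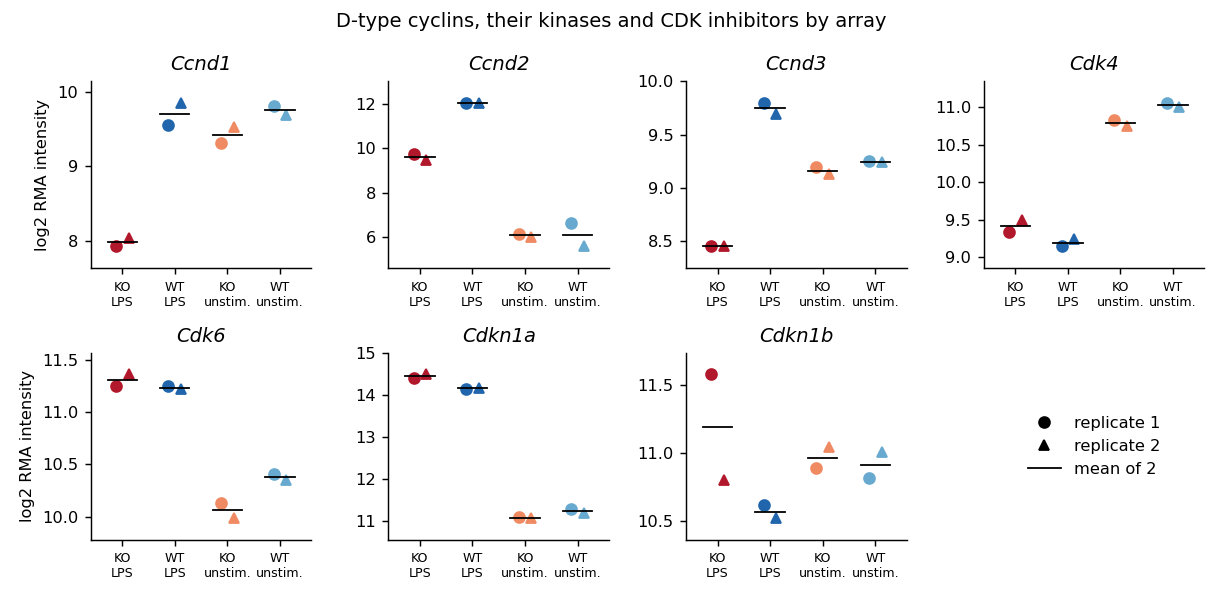
Log2 RMA intensity (vertical axes, each with its own range) of the D-type cyclins, Cdk4, Cdk6 and the CDK inhibitors in each array of the 4 groups. Circles are replicate 1, triangles replicate 2 and bars the mean of both. The KO LPS arrays of Ccnd1 (7.93 and 8.04) and Ccnd3 (8.45 and 8.45) lie below all other groups, and those of Ccnd2 lie between WT LPS and the unstimulated arrays.

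The members include both widely expressed CDK inhibitors. Cdkn1a encodes p21, which binds and inhibits cyclin-CDK complexes. It measured 14.40 and 14.49 in KO LPS, against 11.08 and 11.06 in KO unstimulated arrays, and 14.16 and 14.17 in WT LPS, against 11.27 and 11.17 in WT unstimulated arrays. LPS raised it 10.4-fold in KO cells (3.38 ± 0.10, adjusted p = 3.97e-10) and 7.68-fold in WT cells (2.94 ± 0.10, adjusted p = 1.1e-09), with no overlap of arrays in either. Under LPS it differed between KO and WT by 0.28 ± 0.10, which did not pass (adjusted p = 0.0878). Cdkn1b encodes p27, the inhibitor that keeps resting cells out of the cycle, and it passed in no comparison. It measured 11.58 and 10.80 in KO LPS, 10.62 and 10.52 in WT LPS, 10.89 and 11.04 in KO unstimulated and 10.82 and 11.01 in WT unstimulated arrays, and its spread in KO LPS (SD 0.55) was the widest of its groups.

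Over the whole list, LPS lowered more members than it raised. In KO macrophages 17 of 39 fell and 7 rose (43.6% and 17.9%), against a background of 25.8% and 16.0% of all genes, or 41.8% in either direction. In WT macrophages 20 fell and 8 rose (51.3% and 20.5%), against a background of 30.9% and 21.3%, or 52.2% in either direction. The median change was -0.42 for the members and 0.00 for all genes in KO cells, and -0.65 for the members and 0.04 for all genes in WT cells. Centring on the hybridisation spike-ins moved the median of all genes to -0.20 in KO cells and -0.09 in WT cells, and that of the members to -0.62 and -0.79. The number that fell depended on single arrays. In KO cells the share that fell came near that of all genes without KO unstimulated replicate 2 or KO LPS replicate 1. The same held in WT cells without WT unstimulated replicate 2 or WT LPS replicate 1. The members' median change in KO cells was -0.10 without KO unstimulated replicate 2 and -0.27 without KO LPS replicate 1. The medians of all genes there were 0.00 and -0.05. In WT cells the members' median was -0.33 without WT unstimulated replicate 2 and -0.46 without WT LPS replicate 1. The medians of all genes there were 0.02 and 0.03.

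By direction, 14 members fell in both genotypes: Cdk4, Cdk1, Cdk2, Aurkb, Cdc20, Bub1, Bub1b, Ttk, Cenpa, Cenpf, Kif11, Kif20a, Kif23 and Anln. They are 14 of the 17 that fell in KO cells and 14 of the 20 that fell in WT cells. Ccnd2, Cdk6, Cdkn1a, Mad2l1 and Tpx2, 5 in all, rose in both. Ccna2, Ccnb2, Melk, Plk1, Birc5 and Nuf2, 6 in all, fell in WT cells and did not pass in KO cells, and of these only Melk passed the test of the difference of LPS changes. Cdkn1b, Top2a, Aurka, Nusap1, Spag5, Prc1 and Ect2, 7 in all, passed in neither genotype. Ccnd3 fell in KO cells and rose in WT cells. Mki67 and Cenpe rose and Ccnd1 and Ndc80 fell in KO cells, without passing in WT cells. Foxm1 and Kif2c rose in WT cells without passing in KO cells. The shares of all genes in these classes were not counted, so no excess among the members is read from them.

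**Figure D2:**
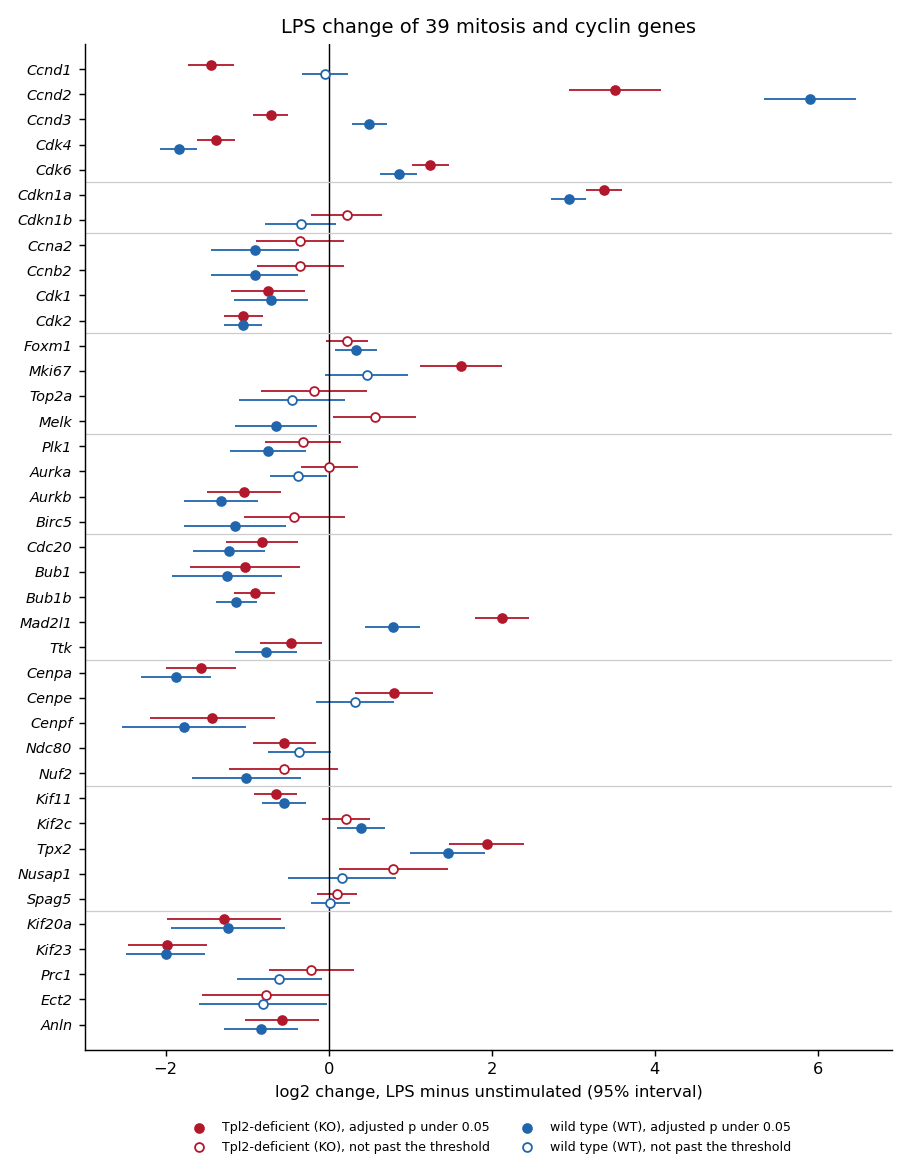
Log2 change with LPS (horizontal axis, LPS minus unstimulated, with 95% intervals) of the 39 measured members, grouped by role. Red points are KO and blue points WT macrophages, filled where the adjusted p is under 0.05. Most kinetochore, checkpoint and cytokinesis genes lie left of 0, while Ccnd2, Cdkn1a, Mad2l1 and Tpx2 lie right of it in both genotypes.

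Of the 4 cyclins and kinases of S phase and mitosis that were measured, Cdk1 and Cdk2 fell with LPS in KO cells and all 4 fell in WT cells. These are 50% and 100%, against 25.8% and 30.9% of all genes. Cdk2, the partner of cyclins E and A, measured 8.62 and 8.43 in KO LPS, against 9.64 and 9.50 in KO unstimulated arrays, and 8.48 and 8.52 in WT LPS, against 9.51 and 9.59 in WT unstimulated arrays. Its fall was 2.06-fold in KO cells (adjusted p = 9.53e-06) and 2.07-fold in WT cells (adjusted p = 7.81e-06), and the groups did not overlap. Cdk1, the kinase of mitotic entry, changed by -0.75 ± 0.21 in KO cells (adjusted p = 0.0118) and -0.70 ± 0.21 in WT cells (adjusted p = 0.014). Cyclin B2, encoded by Ccnb2, measured 8.44 and 8.77 in KO LPS, against 8.69 and 9.22 in KO unstimulated arrays, and 8.42 and 8.90 in WT LPS, against 9.23 and 9.91 in WT unstimulated arrays. The KO groups overlapped and the change of -0.35 ± 0.24 did not pass (adjusted p = 0.289), whereas the WT change was -0.91 ± 0.24 (adjusted p = 0.00829). Ccna2, encoding cyclin A2, had a KO change of -0.35 ± 0.25 (adjusted p = 0.298) and fell by 0.91 ± 0.25 in WT cells (adjusted p = 0.00923). The difference of the LPS changes of Ccnb2 and of Ccna2 was 0.56 in both cases and did not pass.

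The spindle assembly checkpoint holds cells in mitosis until chromosomes are attached, and the activator Cdc20 then switches on the anaphase-promoting complex. All 4 of Cdc20, Bub1, Bub1b and Ttk fell in both genotypes, but the KO call of Ttk (-0.46 ± 0.17, adjusted p = 0.0488) was kept in 2 of the 8 fits that left out an array. Cdc20 measured 8.12 and 8.60 in KO LPS, against 9.01 and 9.34 in KO unstimulated arrays, and 8.50 and 8.66 in WT LPS, against 9.52 and 10.09 in WT unstimulated arrays. It fell 1.77-fold in KO cells (adjusted p = 0.00611) and 2.34-fold in WT cells (adjusted p = 0.000331), with no overlap of treated and untreated arrays. Bub1b, which encodes the checkpoint protein BubR1, fell by 0.91 ± 0.11 in KO cells (adjusted p = 5.23e-05) and fell by 1.13 ± 0.11 in WT cells (adjusted p = 6.92e-06). Bub1, a checkpoint kinase gene, measured 6.25 and 7.19 in KO LPS, against 7.56 and 7.94 in KO unstimulated arrays, and 6.49 and 7.10 in WT LPS, against 7.70 and 8.38 in WT unstimulated arrays. Its treated arrays were all below the untreated ones, though far apart within KO LPS. It fell by 1.03 ± 0.31 in KO cells (adjusted p = 0.0181) and fell by 1.25 ± 0.31 in WT cells (adjusted p = 0.00516). A second, dimmer probe set of the checkpoint kinase Ttk had a positive WT change of 0.42 that passed. With Mad2l1 counted, 80% of 5 checkpoint members fell in KO and in WT cells, against 25.8% and 30.9% of all genes.

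Mad2l1, which encodes the checkpoint protein Mad2 that restrains Cdc20, ran against its partners. It measured 11.38 and 11.18 in KO LPS, against 8.97 and 9.34 in KO unstimulated arrays, and 10.15 and 10.17 in WT LPS, against 9.19 and 9.56 in WT unstimulated arrays. Treated arrays lay above untreated ones in both genotypes, and both KO LPS arrays lay above both WT LPS arrays. The rise was 4.37-fold in KO cells (2.13 ± 0.15, adjusted p = 4.84e-07) and 1.72-fold in WT cells (0.79 ± 0.15, adjusted p = 0.00113). Under LPS it was 2.17-fold higher in KO than in WT cells (1.12 ± 0.15, adjusted p = 0.000482), and the LPS changes differed by 1.34 ± 0.22 (adjusted p = 0.00303). In the test of the difference of LPS changes, 2 members (Mad2l1 and Melk) were higher and 3 (Ccnd1, Ccnd2 and Ccnd3) lower in KO cells, against a background of 5.72% of all genes higher and 2.87% lower, or 8.59% in either direction. A further probe set of Cenpa (1.19 ± 0.19, adjusted p = 0.0032) and of Cdkn1a (0.65 ± 0.15, adjusted p = 0.0238) also passed this test, while the brighter ones used did not. A single probe set measures Mad2l1.

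Kinetochore genes build the attachment site of chromosomes to the spindle. Cenpa, the centromeric histone H3 variant, measured 8.10 and 8.24 in KO LPS, against 9.54 and 9.94 in KO unstimulated arrays, and 8.39 and 8.73 in WT LPS, against 10.14 and 10.72 in WT unstimulated arrays. It fell 2.96-fold in KO cells (-1.57 ± 0.19, adjusted p = 4.36e-05) and 3.65-fold in WT cells (-1.87 ± 0.19, adjusted p = 8.67e-06), and the arrays of treated and untreated cells did not overlap. Cenpf, a large outer kinetochore protein, changed by -1.43 ± 0.35 in KO cells (adjusted p = 0.00575) and -1.77 ± 0.35 in WT cells (adjusted p = 0.00117). Nuf2 and Ndc80, which form the microtubule-binding Ndc80 complex, each passed in 1 genotype. The KO change of Nuf2, -0.55 ± 0.30, did not pass (adjusted p = 0.181), and it fell by 1.01 ± 0.30 in WT cells (adjusted p = 0.0156). Ndc80 fell by 0.54 ± 0.18 in KO cells (adjusted p = 0.0274), with both group means under the array medians, and its WT change of -0.36 ± 0.18 did not pass (adjusted p = 0.11). Cenpe, the kinetochore motor, rose in KO cells (0.80 ± 0.22, adjusted p = 0.011) and did not pass in WT cells (0.32 ± 0.22, adjusted p = 0.24). The difference of the LPS changes was 0.46 for Nuf2, -0.19 for Ndc80 and 0.48 for Cenpe, and passed for none of them.

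Of 5 cytokinesis genes, 3 fell in both genotypes, and Kif23 had the largest fall of all 39 members in each. The share that fell was 60% in KO and in WT cells, against 25.8% and 30.9% of all genes. Kif23, a motor of the centralspindlin complex at the midzone, measured 6.31 and 6.47 in KO LPS, against 8.17 and 8.57 in KO unstimulated arrays, and 6.45 and 7.08 in WT LPS, against 8.49 and 9.03 in WT unstimulated arrays. Treated arrays were all below untreated ones. The fall was at least 3.93-fold in KO cells (-1.98 ± 0.22, adjusted p = 1.95e-05) and 4.0-fold in WT cells (-2.00 ± 0.22, adjusted p = 1.49e-05). Kif20a, the motor that brings the passenger complex to the midzone, changed by -1.28 ± 0.32 in KO cells (adjusted p = 0.00639) and -1.24 ± 0.32 in WT cells (adjusted p = 0.00658). Anln, an actin-binding protein of the contractile ring, fell by 0.57 in KO cells (adjusted p = 0.0433) and fell by 0.83 in WT cells (adjusted p = 0.00524). Its KO change ranged from -0.88 to -0.27 over the alternative settings. A dimmer Anln probe set gave -0.34 in KO cells and -0.16 in WT cells and did not pass. The midzone bundler Prc1 and the RhoA exchange factor Ect2 passed in neither genotype, with changes of -0.21 and -0.76 in KO cells and -0.60 and -0.81 in WT cells.

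Of 4 genes for mitotic kinases and their passenger partner, 1 fell in KO cells and 3 fell in WT cells. These are 25% and 75%, against 25.8% and 30.9% of all genes. Aurkb, the Aurora B kinase that corrects attachments, measured 5.62 and 6.0 in KO LPS, against 6.64 and 7.05 in KO unstimulated arrays, and 5.69 and 6.26 in WT LPS, against 7.14 and 7.45 in WT unstimulated arrays. The fall was at least 2.05-fold in KO cells (adjusted p = 0.00157) and at least 2.50-fold in WT cells (adjusted p = 0.000222). Treated and untreated arrays did not overlap. Birc5, which encodes survivin of the same complex, had a KO change of -0.42 ± 0.28 (adjusted p = 0.277) and fell 2.21-fold in WT cells (-1.14 ± 0.28, adjusted p = 0.00543). The polo-like kinase gene Plk1 had a KO change of -0.32 ± 0.21 (adjusted p = 0.269) and fell by 0.74 ± 0.21 in WT cells (adjusted p = 0.0119). Aurka, the centrosomal Aurora A kinase, passed in neither.

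Of 5 spindle motors and factors, 1 fell and 1 rose in KO cells, and 1 fell and 2 rose in WT cells. The share that fell, 20% in each, was below the 25.8% and 30.9% of all genes in KO and WT cells. The shares that rose were 20% and 40%, against 16.0% and 21.3% of all genes. The kinesin-5 gene Kif11, which separates spindle poles, fell by 0.65 ± 0.12 in KO cells (adjusted p = 0.000953) and fell by 0.55 ± 0.12 in WT cells (adjusted p = 0.00268). Tpx2, the Aurora A activator that nucleates spindle microtubules, measured 8.72 and 8.85 in KO LPS, against 6.55 and 7.15 in KO unstimulated arrays, and 8.88 and 8.97 in WT LPS, against 7.16 and 7.77 in WT unstimulated arrays. All treated arrays exceeded all untreated ones, with a rise of 3.83-fold in KO cells (adjusted p = 1.42e-05) and 2.75-fold in WT cells (adjusted p = 0.000115). Its 3 further probe sets had positive changes of 0.42 to 0.77 that passed in KO cells, and 0.07 to 0.45 that did not pass in WT cells. The depolymerising kinesin gene Kif2c rose in WT cells with the probe set used (0.39 ± 0.13, adjusted p = 0.0293), but 2 of its 3 other probe sets fell there (-1.09 and -0.42) while the dimmest rose (0.36), so it has no settled direction. Nusap1, a microtubule bundler, passed in neither genotype (0.79 ± 0.30 in KO cells, adjusted p = 0.0562). Spag5, which encodes astrin, passed in neither with the probe set used, whose means lay under the array medians, while its other 2 fell in WT cells (-1.06 and -0.70).

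Among the general proliferation genes, Mki67, the Ki-67 coat protein of mitotic chromosomes, was higher rather than lower in treated KO cells. It measured 11.34 and 11.48 in KO LPS, against 9.45 and 10.12 in KO unstimulated arrays, and 10.49 and 10.75 in WT LPS, against 9.84 and 10.47 in WT unstimulated arrays. The KO groups did not overlap, and the WT groups nearly touched. It rose 3.08-fold in KO cells (1.62 ± 0.23, adjusted p = 0.000121), and the WT change was 0.46 ± 0.23 (adjusted p = 0.11). Under LPS it was 1.73-fold higher in KO than in WT cells (0.79 ± 0.23, adjusted p = 0.0421), a call that was lost without any 1 of the 4 LPS-treated arrays. The difference of its LPS changes was 1.16 ± 0.32 (adjusted p = 0.0504).

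Melk, a kinase gene of the same late cell cycle programme, measured 6.72 and 7.24 in KO LPS, 6.11 and 6.38 in WT LPS, 6.24 and 6.59 in KO unstimulated and 6.54 and 7.24 in WT unstimulated arrays. These levels lay around the array medians, and the WT LPS arrays were the lowest pair together with KO unstimulated replicate 1. Its KO change was 0.56 ± 0.23 (adjusted p = 0.0714), it fell at least 1.57-fold in WT cells (-0.65 ± 0.23, adjusted p = 0.034), and the difference of the changes was 1.21 ± 0.32 (adjusted p = 0.0426). That call was lost in 6 of the 8 fits that left out an array. Foxm1, the transcription factor of the mitotic programme, had a KO change of 0.23 ± 0.12 (adjusted p = 0.15) and rose by 0.33 ± 0.12 in WT cells (adjusted p = 0.0338). The WT change ranged from 0.12 to 0.53 over the alternative settings. The dimmer Foxm1 probe sets gave 0.13, -0.20 and 0.21 in WT cells and did not pass. Top2a, the topoisomerase that untangles replicated DNA, passed in no comparison.

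**Figure D3:**
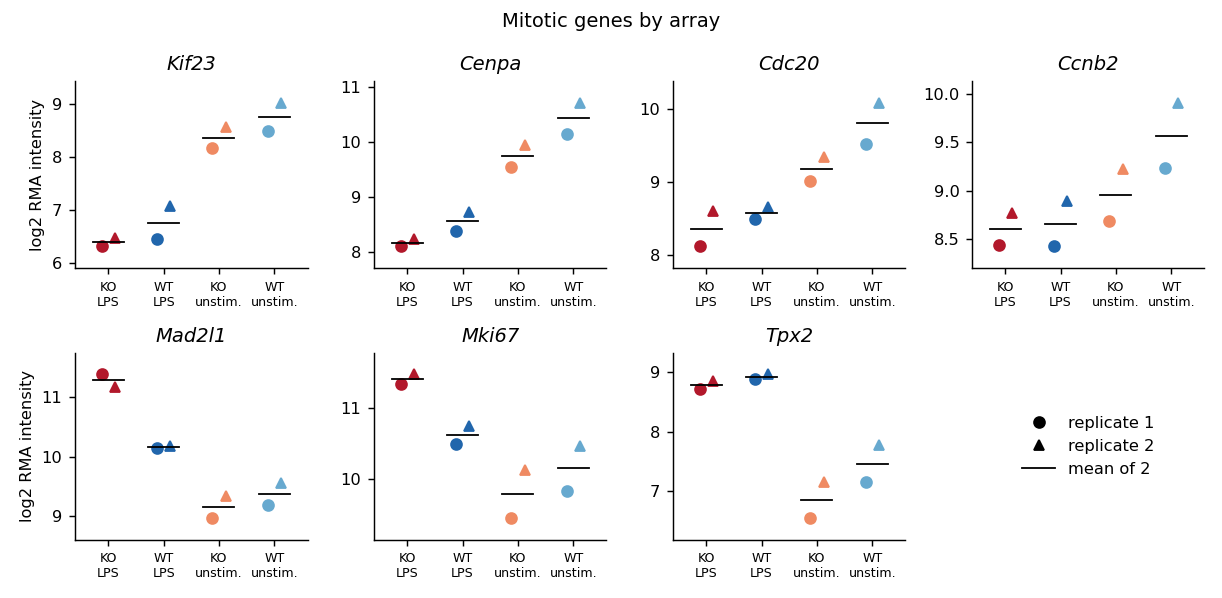
Log2 RMA intensity (vertical axes, each with its own range) of 7 mitotic members in each array, with circles for replicate 1, triangles for replicate 2 and bars for the mean. Kif23, Cenpa and Cdc20 are lower in LPS-treated than in unstimulated arrays of both genotypes, and Mad2l1, Mki67 and Tpx2 are higher in LPS-treated than in unstimulated KO arrays.

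Promoter sequence was set beside these groups because genes of late mitosis share short letters near their start sites: the cell cycle homology region (CHR, searched as TTTGAA or TTCGAA), through which DREAM and B-Myb-MuvB bind, and the CCAAT box (searched as CCAAT), bound by NF-Y. Both strands were searched, overlapping matches were counted, and windows ran from 250 bases before to 50 bases after each RefSeq start (GRCm38.p6). The stretches below are from 4 members that fell in WT cells with LPS (Cdc20, Ccnb2, Cdk1 and Kif23) and 2 that were higher in KO LPS than in WT LPS (Mki67 and Mad2l1). They are written on the gene's strand, with CHR and CCAAT letters on either strand in capitals.
Cdc20, chr4:118437344-118437413, minus strand: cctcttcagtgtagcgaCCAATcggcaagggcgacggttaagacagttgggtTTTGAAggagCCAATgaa
Ccnb2, chr9:70421545-70421649, minus strand: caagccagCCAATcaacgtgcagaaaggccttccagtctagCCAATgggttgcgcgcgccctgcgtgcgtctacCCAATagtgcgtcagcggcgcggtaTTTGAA
Cdk1, chr10:69352913-69353002, minus strand: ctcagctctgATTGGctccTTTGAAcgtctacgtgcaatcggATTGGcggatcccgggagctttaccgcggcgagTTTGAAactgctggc
Kif23, chr9:61946792-61946849, minus strand: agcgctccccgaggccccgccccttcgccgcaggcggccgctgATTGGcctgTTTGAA
Mki67, chr7:135716464-135716574, minus strand: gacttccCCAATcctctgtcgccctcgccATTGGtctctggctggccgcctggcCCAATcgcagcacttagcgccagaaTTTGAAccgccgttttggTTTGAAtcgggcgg
Mad2l1, chr6:66535121-66535220, plus strand: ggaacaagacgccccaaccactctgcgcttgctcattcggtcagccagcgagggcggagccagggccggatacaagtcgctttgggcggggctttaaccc

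The Cdc20 stretch holds 1 CHR between 2 CCAAT boxes, the Ccnb2 stretch 3 CCAAT boxes before a CHR, and the Cdk1 stretch 2 of each. The Mki67 stretch has 3 CCAAT boxes and 2 CHR matches, and the Mad2l1 window has neither. A RefSeq window was matched for 33 of the 40 symbols, 32 of them measured. A CHR match was found for 20 of the 32 (62.5%), against 21.7% of all 27025 genes with a window, and 2 or more CCAAT boxes for 13 (40.6%), against 13.3%. Among members with a window, 12 of 17 that fell in WT cells had a CHR match (70.6%). The share was alike, 7 of 10 (70.0%), for those that did not pass there. Of 5 that rose there, 1 had a match, Kif2c, whose direction is not settled. Of 12 that fell in both genotypes, 10 had a match. These letters are descriptions of the windows and not binding sites.

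Between unstimulated groups none of the 39 members passed with the probe sets used (limma). The background was 0.346% of all genes lower and 0.154% higher in KO cells (0.500% in either direction). An unadjusted limma p under 0.05 was found for 13 of the 39 members, against 2445 of all 18193 genes. All 13 had lower means in KO cells. The median difference was -0.39, against -0.00 for all genes, and 35 of 39 were negative, against 9262 of all 18193 genes. Leaving out 1 array gave -0.22 and -0.59 without KO unstimulated replicates 1 and 2, and -0.64 and -0.16 without WT unstimulated replicates 1 and 2. Centring on the hybridisation spike-ins moved the median of all genes in this comparison to 0.10 and that of the members to -0.29. Cenpa had the lowest p, at 9.54 and 9.94 in KO unstimulated arrays, against 10.14 and 10.72 in WT unstimulated arrays. These groups did not overlap, and the difference was -0.69 ± 0.19 (adjusted p = 0.18). Of its 2 dimmer probe sets, 1 with a mean of 6.48 was lower in KO cells at rest (-1.57 ± 0.13, limma adjusted p = 0.000561 over all probe sets), and the other gave 0.24 and did not pass. Plk1 measured 7.71 and 8.04 in KO unstimulated arrays, against 8.20 and 8.83 in WT unstimulated arrays (-0.64 ± 0.21, adjusted p = 0.24). Cdc20 differed by -0.63 ± 0.20 (adjusted p = 0.229). The D-type cyclin differences at rest were -0.33 for Ccnd1, -0.04 for Ccnd2 and -0.08 for Ccnd3.

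**Figure D4:**
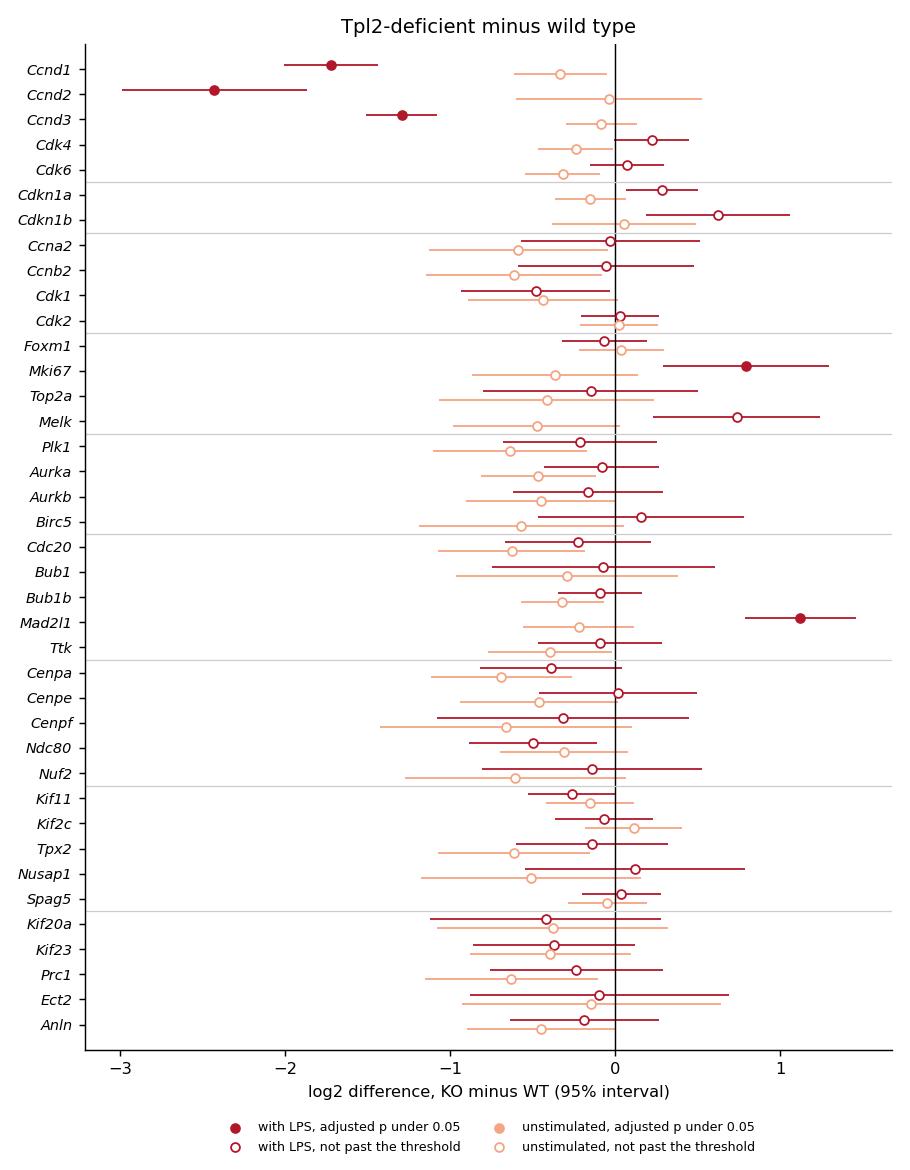
Log2 difference between genotypes (horizontal axis, KO minus WT, with 95% intervals) of the 39 members, with LPS in dark red and unstimulated in orange, filled where the adjusted p is under 0.05. The 3 D-type cyclins are lower and Mad2l1 and Mki67 higher in KO cells under LPS, and no unstimulated point is filled although 35 of 39 lie left of 0.

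The spread between the arrays of a group went one way across the mitotic members. The array labelled replicate 2 was higher than replicate 1 for 31 of 39 members in KO LPS, 33 in WT LPS, 32 in KO unstimulated and 31 in WT unstimulated cells. Over all genes replicate 2 was higher for 47.8%, 49.5%, 47.9% and 47.5% in the same groups. The median difference of the members was 0.18 in KO LPS, 0.27 in WT LPS, 0.37 in KO unstimulated and 0.51 in WT unstimulated cells. The last 2 bracket the size of the median genotype difference at rest. In all 4 groups replicate 2 was higher for 24 members, among them Ccna2, Ccnb2, Cdk1, Plk1, Cenpa and Kif23. The D-type cyclins, Cdk4, Cdk6, Cdkn1a and Cdkn1b were not among these 24. Ect2 had within-group differences between 0.68 and 0.96, against LPS changes of -0.76 in KO cells and -0.81 in WT cells. The labels do not say that a replicate number marks a shared animal or day, and no cause of the spread was tested.

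**Figure D5:**
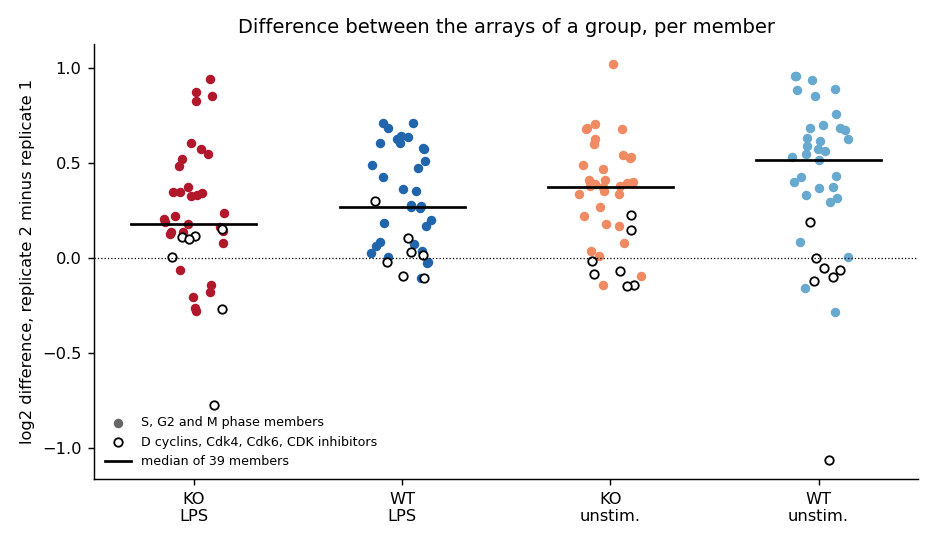
Log2 difference between the arrays of a group (vertical axis, replicate 2 minus replicate 1) for each of the 39 members, by group. Filled points are members of S, G2 and M phase, open points are the D-type cyclins, Cdk4, Cdk6 and the CDK inhibitors, and bars are medians (0.18, 0.27, 0.37 and 0.51 from left to right). Most filled points lie above 0 in every group.

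Other genes of mitosis and cell cycle control were read from lists drawn up for these pathways. Of 75 further mitosis genes measured, 31 fell and 8 rose with LPS in KO cells, and 44 fell and 10 rose in WT cells. These are 41.3% and 10.7% in KO cells, against 25.8% and 16.0% of all genes, and 58.7% and 13.3% in WT cells, against 30.9% and 21.3%. The condensin II subunit gene Ncapg2 had the largest changes there, -2.60 ± 0.10 in KO cells and -2.85 ± 0.10 in WT cells (adjusted p = 2.97e-09 and 1.48e-09). Ncapd3, of the same complex, changed by -1.94 in KO cells and -2.75 in WT cells. Trip13, the ATPase that remodels Mad2, rose by 1.81 in KO cells and 2.13 in WT cells, and Plk4, the kinase of centriole duplication, rose by 1.27 in KO cells and 0.39 in WT cells. Between the genotypes under LPS 5 were higher and 4 lower in KO cells (6.67% and 5.33%), near the 8.01% and 5.73% of all genes, such as Plk4 (0.66 ± 0.14, adjusted p = 0.0103) and the passenger scaffold Incenp (-0.80 ± 0.15, adjusted p = 0.00401). At rest only Ube2s, a ubiquitin-conjugating enzyme of the anaphase-promoting complex, was lower in KO cells (-0.58 ± 0.10, adjusted p = 0.0398). Replicate 2 was the higher array for 49 to 65 of these 75 genes, depending on the group.

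Of 46 further genes of cell cycle control, 19 fell and 12 rose with LPS in KO cells, and 20 fell and 8 rose in WT cells. These are 41.3% and 26.1% in KO cells, against 25.8% and 16.0% of all genes, and 43.5% and 17.4% in WT cells, against 30.9% and 21.3%. The stress-inducible Gadd45b rose by 3.99 ± 0.10 in KO cells (adjusted p = 1.64e-10) and 3.17 ± 0.10 in WT cells (adjusted p = 7.46e-10). The retinoblastoma-like Rbl1, encoding p107 of the DREAM complex, rose by 3.40 in KO cells and 2.77 in WT cells. The checkpoint kinase gene Chek2 fell at least 10.6-fold in KO cells (-3.41 ± 0.15) and at least 9.48-fold in WT cells (-3.24 ± 0.15). Under LPS 9 were higher and 4 lower in KO than in WT cells (19.6% and 8.7%, against 8.01% and 5.73% of all genes). The atypical repressor gene E2f8 was higher by 1.96 ± 0.12 (adjusted p = 1.35e-06) and Cks2, a CDK subunit gene, by 1.11 ± 0.17 (adjusted p = 0.00114). Gadd45a, related to Gadd45b, was lower (-1.69 ± 0.10, adjusted p = 1.41e-06), as were the antiproliferative Btg2 (-1.24 ± 0.10, adjusted p = 8.06e-06) and Cdkn2d, which encodes the Cdk4 and Cdk6 inhibitor p19 (-1.13 ± 0.13, adjusted p = 0.000118).

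Upstream of the D-type cyclins, 13 genes of M-CSF and Myc signalling were read. Id1, which blocks basic helix-loop-helix transcription factors, had the largest genotype difference, -3.52 ± 0.19 in KO LPS relative to WT LPS (adjusted p = 7.42e-07). Ets2, an ERK-activated transcription factor, was lower (-1.78 ± 0.15, adjusted p = 1.51e-05), as was Myc (-0.76 ± 0.14, adjusted p = 0.00346), while Csf1, which encodes M-CSF, was higher by 1.64 ± 0.14 (adjusted p = 1.89e-05). Of the 13, 4 were lower and 3 higher in KO LPS, against 5.73% and 8.01% of all genes. At rest 0 passed (limma), against 0.500% of all genes. An unadjusted limma p under 0.05 at rest was found for 2 of the 13, against 2445 of all 18193 genes, a similar share.

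Markers of other cells and of RNA quality were read in the same arrays, and their part in the results above was not tested. Of 10 progenitor markers 6 had a mean under the array medians, among them Kit, Cd34 and Myb, and their summed log2 level was 11.38 to 11.53 in KO LPS, 12.20 to 12.29 in WT LPS, 10.19 to 10.34 in KO unstimulated and 10.48 to 10.49 in WT unstimulated arrays, with Procr the brightest in every array. Of 11 neutrophil precursor markers 7 were under the medians, including Mpo, Elane and Prtn3. The sum of all 11 was 11.24 to 11.64 in KO LPS and 12.02 to 12.18 in WT LPS arrays. It was 9.99 to 10.01 in KO unstimulated and 10.05 to 10.14 in WT unstimulated arrays. Lcn2 was the brightest of them in all LPS-treated arrays. It measured 10.82 and 10.22 in KO LPS and 11.33 and 11.15 in WT LPS, against 4.79 to 5.48 in unstimulated arrays. Mast cell markers summed to 11.31 to 11.53 in KO LPS, 10.93 to 10.96 in WT LPS, 8.89 to 9.05 in KO unstimulated and 8.98 to 9.12 in WT unstimulated arrays, with 7 of 8 under the medians and Hdc brightest in all LPS-treated arrays. Over all 8 arrays the sums spanned 12.40 to 13.42 for 9 B cell markers, 10.51 to 11.22 for 9 dendritic and 8.74 to 9.22 for 7 erythroid markers. They spanned 9.26 to 9.56 for 7 T and NK cell, 9.86 to 11.24 for 10 stromal and 17.27 to 17.44 for 16 macrophage markers. Of the B cell markers 6 of 9 were under the medians, and Blnk was brightest in every array (12.13 to 13.22). Within KO unstimulated, the stromal sum was 10.57 in replicate 1 and 9.86 in replicate 2, with Col3a1 at 6.56 and 4.82. Actb, whose 3' probe set outshines its 5' probe set more as RNA degrades, had a 3' over 5' log2 ratio of 0.61 and 0.68 in KO LPS, 0.46 and 0.55 in WT LPS, 0.87 and 0.90 in KO unstimulated and 0.81 and 0.67 in WT unstimulated arrays. The same ratio of Gapdh was 0.05 and 0.10 in KO LPS and -0.09 and -0.07 in WT LPS arrays. It was 0.07 and 0.06 in KO unstimulated and 0.09 and -0.03 in WT unstimulated arrays.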

How the data were processed

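The deposited values are log2 intensities of 45101 probe sets on mouse expression arrays, which the authors made with GCOS and RMA, per the submitters' processing notes; versions are not given in the sources used here. Probe sets were named from GEO's platform annotation: 34945 carried a single symbol and were used, 932 carried several and 9211 none. The brightest probe set by mean stood for each of 18193 genes. One limma model (limma 3.58.1, R 4.3.3) was fitted to the 4 groups of 2 arrays, with 4 residual degrees of freedom, eBayes moderation and Benjamini-Hochberg adjustment over all genes in each of 5 comparisons, at a threshold of 0.05. The fit was run on simulated data in which genes varied independently, so that run does not speak to the shared spread of these members. All 40 listed members are accounted for, by role; genes of the other pathway lists are named by size of change among those that passed in a comparison, up to 8 a list. The members and lists were chosen with earlier results of these data known. Alternatives changed the probe set rule, scaling, filter, variance model, arrays and replicate block. Promoters are RefSeq windows of GRCm38.p6.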

Additional observations from a re-analysis of the deposited data

Results flagged for a closer look

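The LPS change differed between KO and WT macrophages for 5 members, by the limma test of the difference itself (KO change minus WT change, Benjamini-Hochberg over all genes), which 8.59% of all genes passed. It was -1.39 for Ccnd1, which fell in KO cells and did not pass in WT cells. It was -2.39 for Ccnd2, which rose in both, and -1.21 for Ccnd3, which fell in KO cells and rose in WT cells. It was 1.34 for Mad2l1, which rose in both, and 1.21 for Melk, which did not pass in KO cells and fell in WT cells. Dimmer probe sets of Cenpa (1.19) and Cdkn1a (0.65) also passed it. With the mean of all its probe sets, neither the difference nor the LPS changes of Ccnd3 passed.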

How the results depend on the processing

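Members that passed were followed over every setting below in which they were tested, except the further probe sets. For the LPS change, 14 of 24 in KO and 14 of 28 in WT passed in the same direction throughout. So did 4 of 5 for KO against WT under LPS (all but Mki67). For the difference of LPS changes 3 of 5 did (Ccnd1, Ccnd2 and Mad2l1). Aurkb and Kif11, among the 14 in both genotypes, were tested in 15 and 16 of 17 settings. Leaving out single arrays gave 6 to 9 members higher and 9 to 17 lower with LPS in KO cells, 6 to 8 higher and 10 to 24 lower in WT cells, 1 to 3 higher and 3 to 4 lower in KO LPS than in WT LPS, 0 to 0 at rest, and 1 to 4 higher and 3 to 3 lower for the difference. The number higher under LPS in KO against WT was 1 with repeated quantile normalization or array weights, 4 with spike-in centring or only genes above the median level, and 5 with a mean-variance trend. The number higher for the difference was 1 with quantile normalization or array weights and 4 with the mean of all probe sets, genes above the median or the trend. The mean of all probe sets gave 5 higher with LPS in WT cells, and genes above the median gave 11 lower in KO cells, where fewer genes were tested. With the replicate number as a block (replicate block), 6 were lower under LPS and 2 at rest (Plk1 and Cenpa). Same-numbered arrays did not deviate together over all 45101 probe sets (r from -0.15 to 0.09) but did over the 39 members (r from 0.51 to 0.81), a hint from the data and not from the design. The mean of all probe sets turned the WT LPS change of Kif2c to -0.19 and of Spag5 to -0.58. Further probe sets, read one by one after the data were seen, reversed these values. In KO cells with LPS, they gave Ccnd3 0.13 and 0.11, Cdk2 0.12, Bub1 0.0732, Ttk 0.0638 and Cenpf 0.0221. In WT cells with LPS, they gave Ccnd3 -0.10, Foxm1 -0.20, Ttk 0.42, Cenpf 0.15, Kif11 0.11, Kif2c -1.09 and -0.42, and Spag5 -1.06 and -0.70. Between KO and WT under LPS, they gave Ccnd3 0.00829 and 0.16 and Cdk6 -0.56 (passed, adjusted p = 0.0483), and for the difference Ccnd3 0.21. The causes were not tested.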
